A study of Mus musculus with 6 samples.

Results

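Natriuretic peptide and cGMP signalling was followed in the brown fat of mice, taken from the interscapular depot (iBAT), through 8 genes chosen by symbol: Npr1, Npr2, Npr3, Gucy1a1, Gucy1b1, Prkg1, Prkg2 and Pde5a. All 8 were found among the 55703 genes measured, and 6 of them were among the 13507 genes with enough reads to be tested. RNA-seq libraries came from 3 Wtap-BKO mice, with genotype WTAPflox/flox UCP1-iCre+/-, and from 3 Wtap flox/flox mice (WTAPflox/flox) that carried no Cre. All 6 mice were C57BL/6, 8 weeks old and homozygous for the floxed Wtap allele, and no other treatment is labelled. The comparison asks how loss of Wtap in brown adipocytes changes the RNA of the tissue. Cre was expressed from the Ucp1 locus, behind the last coding exon, so recombination is limited to cells that express Ucp1, while the libraries held RNA of every cell in the pad. Cre itself was present in 1 group alone, so its presence and the loss of Wtap cannot be told apart. WTAP belongs to the methyltransferase complex that places N6-methyladenosine (m6A) in mRNA.

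Natriuretic peptides are hormones of the heart and vessel wall that also act on fat cells. Their cyclase receptors convert GTP to cGMP, cGMP activates a protein kinase, and in fat cells this kinase drives lipolysis, best known from human adipocytes, and, through p38 MAP kinase, thermogenic genes. A separate receptor without cyclase activity removes the peptides, and phosphodiesterases hydrolyse cGMP, while nitric oxide feeds the same pool through the soluble guanylyl cyclase of smooth muscle and other cells.

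The libraries held 16797345 to 18256002 assigned reads in Wtap-BKO mice and 15979694 to 19005123 in Wtap flox/flox mice. Replicates differed from each other by more than counting error, at 55.0 to 117.5 (chi-square over degrees of freedom) between pairs of Wtap-BKO libraries and 22.6 to 36.3 between pairs of Wtap flox/flox libraries. Pairs were scaled here by read totals and not by the scaling of the FPKM. The values are therefore not read as a difference in spread between the groups. The libraries labelled Wtap-BKO averaged 12.3 ± 0.463 FPKM of Wtap, against 8.26 ± 0.326 FPKM in those of Wtap flox/flox mice (SD, n = 3 each), so that Wtap was higher under the knockout label. A single exon of Wtap was floxed, so this value, summed over all exons, is no check of the deletion or of the labels. Ucp1, the uncoupling protein of brown fat, had 293, 495 and 287 FPKM in Wtap-BKO replicates 1 to 3, against 1650, 2072 and 1586 in Wtap flox/flox replicates 1 to 3, and its locus is modified by the Cre cassette. Skeletal muscle genes were abundant in Wtap-BKO replicate 3 and in Wtap flox/flox replicate 2, with 13 muscle genes summing to 1297 and 772 FPKM, against 2.30 to 15.9 FPKM in the other 4 libraries. Reads from mitochondrially encoded genes were 11.0% to 12.2% of the total in Wtap-BKO and 18.3% to 22.4% in Wtap flox/flox. FPKM is fragments per kilobase of gene, here also scaled for library size by the authors, and levels of different genes are compared on this length-corrected scale.

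Among the 8 genes, the differences that passed the test lay in the particulate receptors. Npr1 encodes guanylyl cyclase A, the receptor of the atrial and B-type peptides, and Npr3 encodes the clearance receptor, which binds all of these peptides and lacks a cyclase domain. In Wtap-BKO iBAT Npr1 was 1.78-fold lower and Npr3 was 2.15-fold higher than in Wtap flox/flox iBAT. Of the 6 genes tested, 1 was called lower and 1 higher at an adjusted p under 0.05 (limma). Over all 13507 genes tested, 9.98% were called, with 824 genes (6.1%) higher and 524 (3.88%) lower in Wtap-BKO. Scaling by library total alone changed that split to 1113 higher and 310 lower. The median log2 change was -0.02 over the 6 genes and -0.00 over all genes tested.

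The promoters of both called genes, taken from RefSeq on GRCm38.p6 as windows of 300 bases around the annotated start, are shown because they differ in composition. Capitals mark the GC box (GGGCGG) and the CCAAT box (CCAAT), each searched on both strands. Npr1 lies at chr3:90465817-90466116 and Npr3 at chr15:11907322-11907621, both on the minus strand. The Npr1 window holds the start of the gene as counted, base 90465866. The Npr3 window lies wholly upstream of the gene as counted, which starts at base 11907287.
Npr1 promoter: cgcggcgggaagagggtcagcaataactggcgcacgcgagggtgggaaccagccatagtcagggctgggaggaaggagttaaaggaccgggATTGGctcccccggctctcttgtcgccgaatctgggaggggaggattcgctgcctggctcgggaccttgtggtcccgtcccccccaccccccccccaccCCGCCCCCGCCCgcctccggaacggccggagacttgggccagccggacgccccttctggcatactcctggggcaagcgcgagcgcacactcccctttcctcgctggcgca
Npr3 promoter: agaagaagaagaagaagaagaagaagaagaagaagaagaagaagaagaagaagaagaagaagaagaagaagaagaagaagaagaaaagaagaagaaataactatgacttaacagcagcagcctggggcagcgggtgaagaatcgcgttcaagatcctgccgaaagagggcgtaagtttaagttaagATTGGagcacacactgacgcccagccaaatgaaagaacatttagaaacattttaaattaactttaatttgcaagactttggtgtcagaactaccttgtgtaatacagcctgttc

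The Npr1 window was 69.7% G and C with 26 CpG dinucleotides, a G and C content above that of 89.9% of the 32851 RefSeq promoters examined. It held 2 GC boxes lying end to end and 1 CCAAT box. The Npr3 window was 39.0% G and C with 6 CpG dinucleotides, above 8.38% of promoters. It held 1 CCAAT box, no GC box and an unbroken GAA repeat of 84 bases at its upstream end. A GAA repeat of at least this length was held by 3 of the 32851 promoters (0.00913%), searched on the printed strand alone. GC boxes were found in 35.7% and CCAAT boxes in 37.4% of all promoters. The window of Npr2 held neither motif at 64.0% G and C. The CRE (TGACGTCA, on both strands) was absent from the 3 receptor windows and present in 1.79% of all promoters, and its shorter form TGACG, which lies within it, was found once in the Npr3 window and in 20.8% of all promoters. These matches describe letters and were not tested as binding sites.

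Because WTAP acts in m6A writing, which favours the sequence GGACT near stop codons, the GGACT nearest to the stop codon was located in a GENCODE transcript of each gene on the same assembly. The sites of the 3 receptors and of Pde5a are shown, with the GGACT in capitals and 10 bases on either side. No methylation was measured in these libraries. The study measured m6A in iBAT of both genotypes in a separate experiment, which was not used here.
Npr1 site, chr3:90450942-90450966, minus strand, 3 prime UTR: gagatggtggGGACTggagggggac
Npr3 site, chr15:11851462-11851486, minus strand, coding sequence: accggtatggGGACTtctctgtggt
Npr2 site, chr4:43650957-43650981, plus strand, coding sequence: gggacctcccGGACTcctgtaaagc
Pde5a site, chr3:122855316-122855340, plus strand, coding sequence running into the stop codon: agggcaagcgGGACTgactgatgcc

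Counted from the first base of the stop codon, the nearest GGACT began at base 166 in Npr1, at base -382 in Npr3, at base -9 in Npr2 and at base -4 in Pde5a. Within 100 bases of the stop codon a GGACT was present in 3 of the 8 genes (Npr2, Prkg2 and Pde5a) and in 24.8% of 10911 tested genes with such a window. Neither of the called genes, Npr1 and Npr3, had one there. Whole transcripts held 8 copies in Npr1, 7 in Npr2 and 6 in Npr3, which is 1.97, 1.91 and 0.871 copies per kilobase.

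Npr1 (ENSMUSG00000027931, chr3:90450591-90465866, minus strand) had 27.0, 19.9 and 17.3 FPKM in Wtap-BKO replicates 1 to 3, against 33.1, 36.1 and 44.8 FPKM in Wtap flox/flox replicates 1 to 3. Every Wtap-BKO library lay below every Wtap flox/flox library. The groups did not overlap, in either direction, for 35.0% of all genes tested. The means of Npr1 were 21.4 ± 5.02 FPKM in Wtap-BKO and 38.02 ± 6.05 FPKM in Wtap flox/flox (SD, n = 3 each). They rest on 1551 to 2457 reads a library in Wtap-BKO and 2814 to 3382 in Wtap flox/flox. The log2 change was -0.84 ± 0.19 (SE), with a 95% interval of -1.29 to -0.39 and an adjusted p of 0.0390 (limma). With each library left out in turn the log2 change stayed between -1.02 and -0.70, but the gene was called in 1 of the 6 fits, that without Wtap-BKO replicate 1, and the adjusted p reached 0.109.

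Npr3 (ENSMUSG00000022206, chr15:11839896-11907287, minus strand) had 29.9, 26.4 and 27.9 FPKM in Wtap-BKO replicates 1 to 3, against 8.88, 10.4 and 19.9 FPKM in Wtap flox/flox replicates 1 to 3. The 3 Wtap-BKO libraries lay close together and above all Wtap flox/flox libraries, of which replicate 3 was the nearest. The means were 28.1 ± 1.77 FPKM in Wtap-BKO and 13.1 ± 6.00 FPKM in Wtap flox/flox, resting on 4282 to 5348 reads a library in Wtap-BKO and 1511 to 2953 in Wtap flox/flox. The log2 change was 1.19 ± 0.28 (SE), with a 95% interval of 0.52 to 1.86 and an adjusted p of 0.0446 (limma). It was 0.96 to 1.54 with each library left out, and the gene was called in 1 of those 6 fits, that without Wtap flox/flox replicate 3 (adjusted p = 0.0152, and at most 0.138 in the others). Without both libraries that held muscle RNA neither receptor was called, at log2 changes of -0.73 for Npr1 (adjusted p = 0.245) and 1.07 for Npr3 (adjusted p = 0.283), and with 2 libraries left in each group 0 of the 13507 genes were called by limma (2217 at an unadjusted p under 0.05).

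Npr2 (ENSMUSG00000028469, chr4:43631935-43651244, plus strand) encodes guanylyl cyclase B, the receptor of the C-type peptide. It had 14.4, 11.5 and 9.90 FPKM in Wtap-BKO replicates 1 to 3, against 9.13, 9.96 and 13.2 FPKM in Wtap flox/flox replicates 1 to 3. The groups overlapped across most of their range. The log2 change was 0.15, with an adjusted p of 0.648 (limma) and a 95% interval of -0.30 to 0.59, an interval that reaches from a small decrease to an increase of 1.5-fold.

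**Figure D1:**
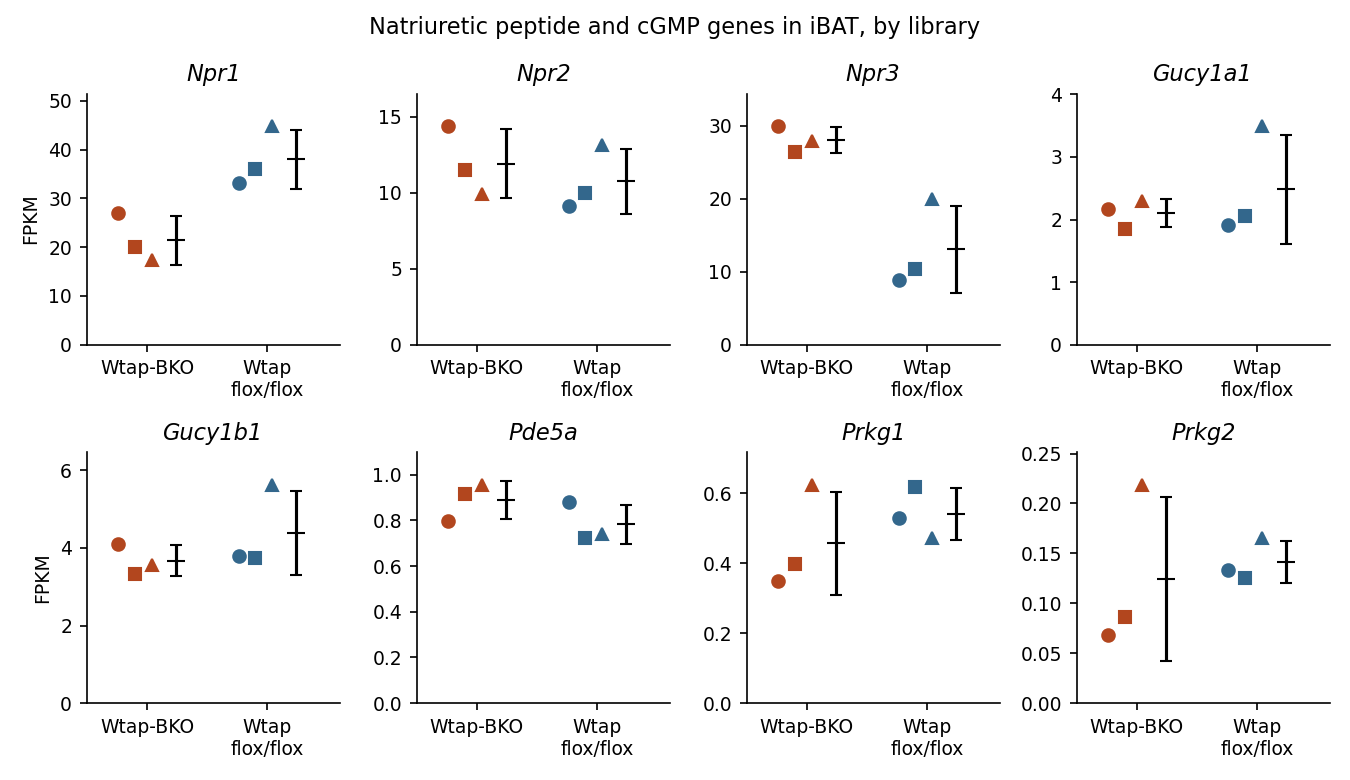
FPKM of the 8 genes in each library, with Wtap-BKO left of Wtap flox/flox; circle, square and triangle are replicates 1, 2 and 3, and the black bar is the mean with its SD (n = 3). The groups separate for Npr1 (17.3 to 27.0 FPKM in Wtap-BKO, 33.1 to 44.8 in Wtap flox/flox) and Npr3 (26.4 to 29.9 FPKM in Wtap-BKO, 8.88 to 19.9 in Wtap flox/flox), and overlap for the other 6 genes. Over all genes tested, the groups did not overlap for 35.0%.

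Read together, the 3 receptor genes had overlapping sums in the groups and proportions that did not overlap for Npr1 and Npr3. Their sum was 71.3, 57.8 and 55.1 FPKM in Wtap-BKO replicates 1 to 3, against 51.1, 56.4 and 77.9 FPKM in Wtap flox/flox replicates 1 to 3. The means of these sums were 61.4 ± 8.67 FPKM in Wtap-BKO and 61.8 ± 14.1 FPKM in Wtap flox/flox. Npr1 made up 37.9%, 34.5% and 31.4% of the sum in Wtap-BKO, against 64.8%, 64.0% and 57.5% in Wtap flox/flox. Npr3 made up 42.0%, 45.7% and 50.7% in Wtap-BKO, against 17.4%, 18.3% and 25.6% in Wtap flox/flox. The clearance receptor was thus the most abundant of the 3 transcripts in each Wtap-BKO library, and Npr1 in each Wtap flox/flox library. The share of Npr2 was 19.3 ± 1.18% in Wtap-BKO and 17.5 ± 0.505% in Wtap flox/flox. The shares add to 100% in a library and so are not independent of each other. They restate the levels given above, and no test was made on them.

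**Figure D2:**
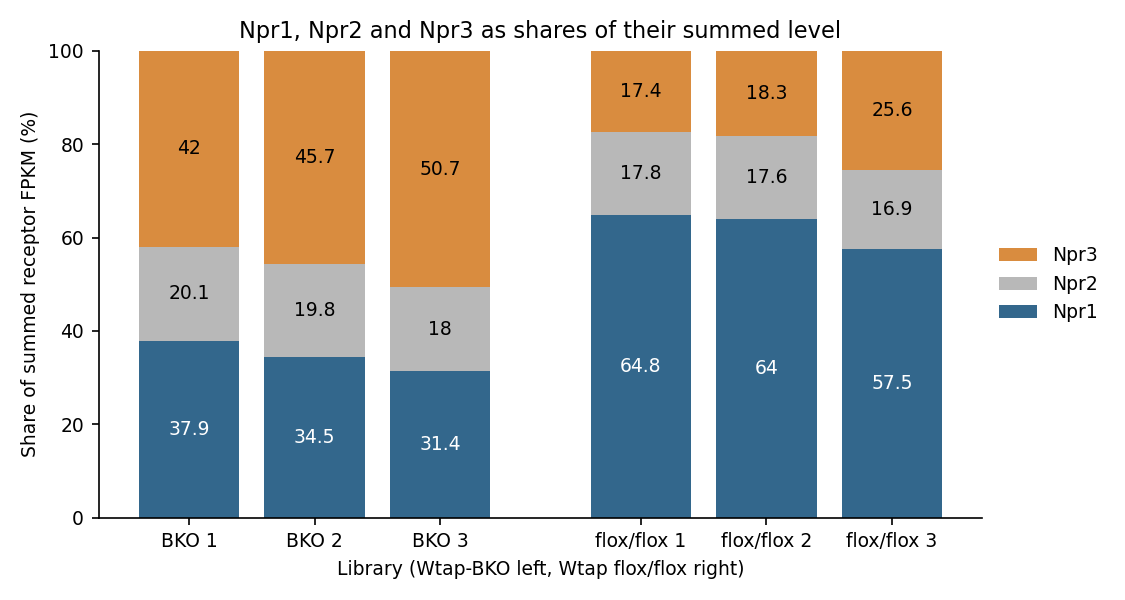
Share of each receptor gene in the summed FPKM of Npr1, Npr2 and Npr3, in percent, 1 bar per library, Wtap-BKO left and Wtap flox/flox right. Npr1 fills 31.4% to 37.9% of the Wtap-BKO bars and 57.5% to 64.8% of the Wtap flox/flox bars, and Npr3 fills 42.0% to 50.7% of the Wtap-BKO bars and 17.4% to 25.6% of the Wtap flox/flox bars.

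The ratio of Npr1 to Npr3, cyclase receptor over clearance receptor, was 0.902, 0.755 and 0.620 in Wtap-BKO replicates 1 to 3, against 3.73, 3.49 and 2.25 in Wtap flox/flox replicates 1 to 3. It lay below 1 in all 3 Wtap-BKO libraries and above 2 in all 3 Wtap flox/flox libraries. The log2 ratio differed by -2.04, a ratio 4.11-fold lower in Wtap-BKO. This difference combines the changes of Npr1 and Npr3 given above and is not a further result. With each library left out the difference stayed between -2.27 and -1.90. As a ratio within a library it does not depend on the scaling between libraries, and it is given as a description without a test. The ratio of Npr1 to Npr2, the cyclase receptors, was 1.79 ± 0.0789 in Wtap-BKO and 3.55 ± 0.129 in Wtap flox/flox. It varied less between replicates than the level of Npr1 itself, since Npr1 and Npr2 were both highest in Wtap-BKO replicate 1 and in Wtap flox/flox replicate 3.

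Soluble guanylyl cyclase, the nitric oxide receptor, is a heterodimer whose main subunits are encoded by Gucy1a1 and Gucy1b1. Gucy1a1 (chr3:82092427-82145789, minus strand) had 2.17, 1.85 and 2.29 FPKM in Wtap-BKO replicates 1 to 3, against 1.91, 2.05 and 3.49 FPKM in Wtap flox/flox replicates 1 to 3. Gucy1b1 (chr3:82032006-82074689, minus strand) had 4.11, 3.33 and 3.56 FPKM in Wtap-BKO replicates 1 to 3, against 3.79, 3.74 and 5.63 FPKM in Wtap flox/flox replicates 1 to 3. For both subunits Wtap flox/flox replicate 3 was the highest library, and the other 5 lay within a narrow range. The log2 changes were -0.18 for Gucy1a1 (95% interval -0.76 to 0.39, adjusted p = 0.657) and -0.23 for Gucy1b1 (-0.67 to 0.21, adjusted p = 0.455) by limma. Gucy1a1 turned to 0.08 when Wtap flox/flox replicate 3 was left out. The subunits kept to each other, with a ratio of Gucy1a1 to Gucy1b1 of 0.575 ± 0.0605 in Wtap-BKO and 0.558 ± 0.0589 in Wtap flox/flox.

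Prkg1 and Prkg2 encode the cGMP-dependent protein kinases, type I being the form of smooth muscle and adipocytes, and both were too low to be tested. Prkg1 (chr19:30564489-31765033, minus strand) had 0.348, 0.399 and 0.624 FPKM in Wtap-BKO replicates 1 to 3, against 0.530, 0.618 and 0.471 FPKM in Wtap flox/flox replicates 1 to 3, from 73 to 129 reads a library. Its mean of 0.498 FPKM lay just under the minimum of 0.5. Prkg2 (chr5:98929773-99037351, minus strand) had 0.0685, 0.0863 and 0.219 FPKM in Wtap-BKO replicates 1 to 3, against 0.134, 0.126 and 0.165 FPKM in Wtap flox/flox replicates 1 to 3, from 7 to 22 reads a library. The groups overlapped for both kinases. In a fit without the minimum the log2 changes were -0.22 for Prkg1 (adjusted p = 0.758) and -0.16 for Prkg2 (adjusted p = 0.845) by limma, with 0.1 FPKM added to values of this size.

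Pde5a (chr3:122728947-122859374, plus strand) encodes the phosphodiesterase that hydrolyses cGMP selectively. It had 0.797, 0.913 and 0.956 FPKM in Wtap-BKO replicates 1 to 3, against 0.881, 0.724 and 0.741 FPKM in Wtap flox/flox replicates 1 to 3. The groups overlapped through Wtap flox/flox replicate 1. The log2 change was 0.17, with a 95% interval of -0.32 to 0.65 and an adjusted p of 0.642 (limma).

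By level, the genes fell in nearly the same order in both groups, apart from the receptors. In Wtap-BKO the order was Npr3, Npr1, Npr2, Gucy1b1, Gucy1a1, Pde5a, Prkg1 and Prkg2. The ranges of Npr3 and Npr1 overlapped there, and those of all other neighbours did not. In Wtap flox/flox Npr1 stood first, Npr3 and Npr2 followed with overlapping ranges, and the remaining 5 genes kept the same order without overlap. Npr1 exceeded 85.2% of all tested genes in Wtap-BKO and 92.0% in Wtap flox/flox, and Npr3 exceeded 88.8% in Wtap-BKO and 76.9% in Wtap flox/flox. Pde5a, in contrast, exceeded 9.67% of tested genes in Wtap-BKO and 7.74% in Wtap flox/flox.

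Profiles most like those of the receptors were sought among 6681 tested genes that averaged 5 FPKM or more, as the root mean square difference of centred log2 values over the 6 libraries. For Npr1 these were Angpt1, a ligand of the endothelial receptor Tek (difference 0.13), Ednrb, an endothelin receptor (0.13), and Fabp3-ps1 (0.15), a pseudogene whose reads may be shared with its parent gene. Angpt1 averaged 5.56 FPKM in Wtap-BKO and 9.83 FPKM in Wtap flox/flox, and Ednrb 7.77 FPKM in Wtap-BKO and 12.6 FPKM in Wtap flox/flox. For Npr3 they were Ahnak (0.19), Mfge8, a secreted factor for uptake of dying cells (0.19), and Tdrp (0.20). Mfge8 averaged 59.0 FPKM in Wtap-BKO and 24.7 FPKM in Wtap flox/flox. For the other genes the nearest were Hcls1, Crim1 and Pxdc1 for Npr2, Cdkn1c, Slc25a38 and Gpx7 for Gucy1a1, Scnm1, Afap1l1 and Tln1 for Gucy1b1, and Tmem268, Appl2 and Cdadc1 for Pde5a, at differences of 0.03 to 0.12.

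The rest of the pathway was read from 94 further genes in 6 lists, of which 57 were tested. Of these, 1 was called higher and 1 lower, beside 6.1% higher and 3.88% lower of all genes tested. The median log2 change of the 57 was -0.04. An unadjusted p under 0.05, counted below for each list with tested genes, was reached by 3897 of all 13507 genes tested (28.9%). The peptides themselves, named after their values were seen, had almost no reads: Nppa and Nppc had 1 read in a single Wtap-BKO library each, and Nppb and Ostn were listed at 0 throughout. Ide, a protease of most cell types that is also named for its value, was listed at 0 as well, so a listed 0 need not mean that a transcript was absent. None of the 4 tested genes of peptide processing was called by limma, 2 of them having an unadjusted p under 0.05. The most abundant were Ece1, the endothelin-converting protease, at 22.5 ± 1.95 FPKM in Wtap-BKO and 18.1 ± 1.30 FPKM in Wtap flox/flox (adjusted p = 0.110), and Mme, whose product neprilysin degrades natriuretic peptides, at 19.5 ± 4.62 FPKM in Wtap-BKO and 17.7 ± 1.11 FPKM in Wtap flox/flox (adjusted p = 0.729).

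In the supply of nitric oxide, 1 of 13 tested genes was called by limma, beside 9.98% of all genes tested. An unadjusted p under 0.05 was reached by 4 of the 13, and their median log2 change was -0.07. Spr, the reductase of the last step of tetrahydrobiopterin synthesis, a cofactor of nitric oxide synthases, had 30.7, 29.3 and 28.3 FPKM in Wtap-BKO replicates 1 to 3, against 17.5, 16.5 and 13.5 FPKM in Wtap flox/flox replicates 1 to 3. It was 1.86-fold higher in Wtap-BKO, at a log2 change of 0.90 ± 0.12 (SE) and an adjusted p of 0.00970 (limma), and was called with each single library left out. The caveolin gene Cav1 had 316 ± 43.7 FPKM in Wtap-BKO and 243 ± 16.6 FPKM in Wtap flox/flox (adjusted p = 0.124), and the chaperone gene Hsp90aa1 58.0 ± 3.86 FPKM in Wtap-BKO and 47.8 ± 7.00 FPKM in Wtap flox/flox (adjusted p = 0.195). None of the 9 other guanylyl cyclases and their ligands reached the level for testing.

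None of the 9 tested genes of other cGMP phosphodiesterases and export was called by limma, with 1 at an unadjusted p under 0.05. Pde3b, the cGMP-inhibited phosphodiesterase of adipocytes, was the most abundant, at 42.3 ± 6.07 FPKM in Wtap-BKO and 34.8 ± 3.76 FPKM in Wtap flox/flox (adjusted p = 0.246). Next in the list was Pde6d, whose product does not itself hydrolyse cGMP. It had 8.01 ± 0.136 FPKM in Wtap-BKO and 8.72 ± 0.672 FPKM in Wtap flox/flox (adjusted p = 0.476). Among 18 tested substrates and partners of the cGMP kinases none was called, with 6 at an unadjusted p under 0.05, a share near that of all genes, and a median log2 change of -0.13. Tns1, a focal adhesion gene, had 97.0 ± 11.4 FPKM in Wtap-BKO and 99.1 ± 8.97 FPKM in Wtap flox/flox, and Cfl1, an actin-severing factor, 65.9 ± 6.20 FPKM in Wtap-BKO and 64.3 ± 5.15 FPKM in Wtap flox/flox. Of 13 tested genes of the p38 arm and its thermogenic targets, Ucp1 was called lower, at a log2 change of -2.34 ± 0.24 (SE) and an adjusted p of 0.00495 (limma). In this list 6 of the 13 had an unadjusted p under 0.05, beside 28.9% of all genes tested. The median log2 change was -0.33, and 4 genes lay above 0. Dio2 (-1.57, adjusted p = 0.0726) and Ppargc1a (-0.90, adjusted p = 0.145), named after their values were seen, were not called by limma. The lipid droplet genes Cidea, at 1397 ± 241 FPKM in Wtap-BKO and 1980 ± 232 FPKM in Wtap flox/flox (adjusted p = 0.111), and Plin1, at 352 ± 9.64 FPKM in Wtap-BKO and 319 ± 27.5 FPKM in Wtap flox/flox (adjusted p = 0.412), were not called.

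**Figure D3:**
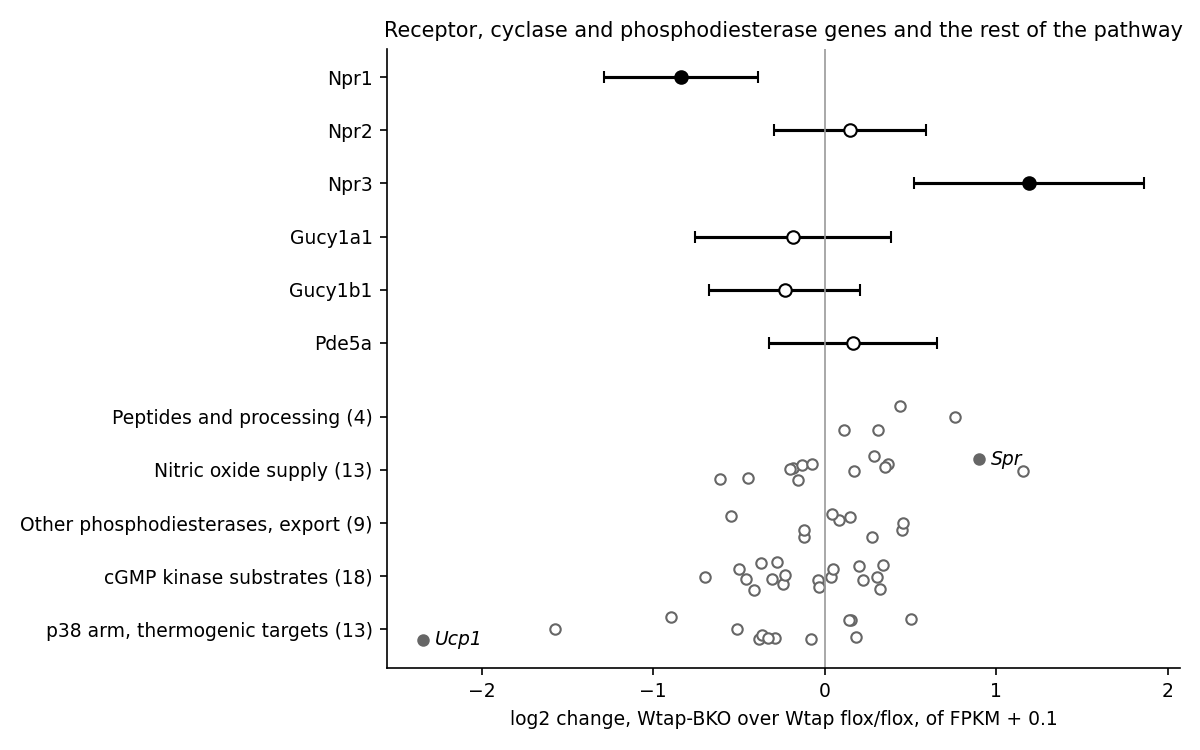
Log2 change of FPKM + 0.1, Wtap-BKO over Wtap flox/flox, for the 6 tested genes with their 95% intervals and for 57 other tested genes of the pathway by list, with the number in each list in brackets; filled points passed an adjusted p of 0.05. Npr1 (-0.84) and Npr3 (1.19) are filled among the 6, and Spr (0.90) and Ucp1 (-2.34) among the 57.

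Receptor genes of this pathway are expressed in several cell types of the pad, and in whole tissue fewer cells of a type and less RNA per cell cannot be told apart. Marker lists of vessel cells were set beside Npr1. The 13 smooth muscle and pericyte markers summed to 233, 229 and 218 FPKM in Wtap-BKO replicates 1 to 3, against 261, 267 and 327 FPKM in Wtap flox/flox replicates 1 to 3. These sums separated the groups in the same direction as Npr1. None of the 12 tested markers was called by limma (2 at an unadjusted p under 0.05, median log2 change -0.30), and 3 had a log2 change above 0. The sums rest in large part on Rgs5, named after its values were seen. It had 92.0 ± 12.2 FPKM in Wtap-BKO and 136 ± 26.1 FPKM in Wtap flox/flox (adjusted p = 0.0813, limma). The 12 endothelial markers summed to 457, 429 and 286 FPKM in Wtap-BKO, against 432, 390 and 510 FPKM in Wtap flox/flox, with overlap. None of these was called or had an unadjusted p under 0.05, and the median log2 change was -0.20. Wtap flox/flox replicate 3, the highest library of its group for the 3 receptors and both cyclase subunits, was also its highest for both vessel lists. It was likewise the highest of its group for the macrophage, fibroblast and T and B cell lists, and the lowest for both adipocyte lists.

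Macrophage and fibroblast lists had medians in the direction of Npr3, as had the mast cell and platelet (0.51), skeletal muscle (0.42) and Schwann and nerve (0.22) lists. Medians of the brown adipocyte and the T and B cell (-0.56) lists lay in the direction of Npr1. The 12 macrophage markers summed to 383, 256 and 342 FPKM in Wtap-BKO, against 167, 189 and 249 FPKM in Wtap flox/flox, with 4 called higher (Csf1r, Mrc1, C1qc and Cd14, named after their values were seen) and a median log2 change of 0.71. The 12 fibroblast and preadipocyte markers summed to 278, 220 and 328 FPKM in Wtap-BKO, against 180, 186 and 229 FPKM in Wtap flox/flox, with 1 called higher (Dpt, named after its values were seen) and a median of 0.65. The 11 general adipocyte markers summed to 9291, 7544 and 10274 FPKM in Wtap-BKO, against 7615, 7946 and 7053 FPKM in Wtap flox/flox, overlapping, with 1 called higher (Adipoq, named likewise) and a median of 0.09. The 12 brown adipocyte markers summed to 4514, 4666 and 3388 FPKM in Wtap-BKO, against 7015, 8569 and 6376 FPKM in Wtap flox/flox, with 2 called lower (Ucp1 and Cox7a1) and a median of -0.36. This sum rests mostly on a few abundant genes, and 4 of the 12 markers had a log2 change above 0 without being called. Elovl3, a fatty acid elongase, was the farthest of these, at 9.97 ± 8.08 FPKM in Wtap-BKO and 0.944 ± 0.742 FPKM in Wtap flox/flox (log2 change 3.27, adjusted p = 0.0516, limma). Cox7a1 and Elovl3 were also named after their values were seen. Over all marker lists 11 of 99 tested genes were called, a share near the 9.98% of all genes tested. The part of these cell types in the values of Npr1 and Npr3 was not tested.

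**Figure D4:**
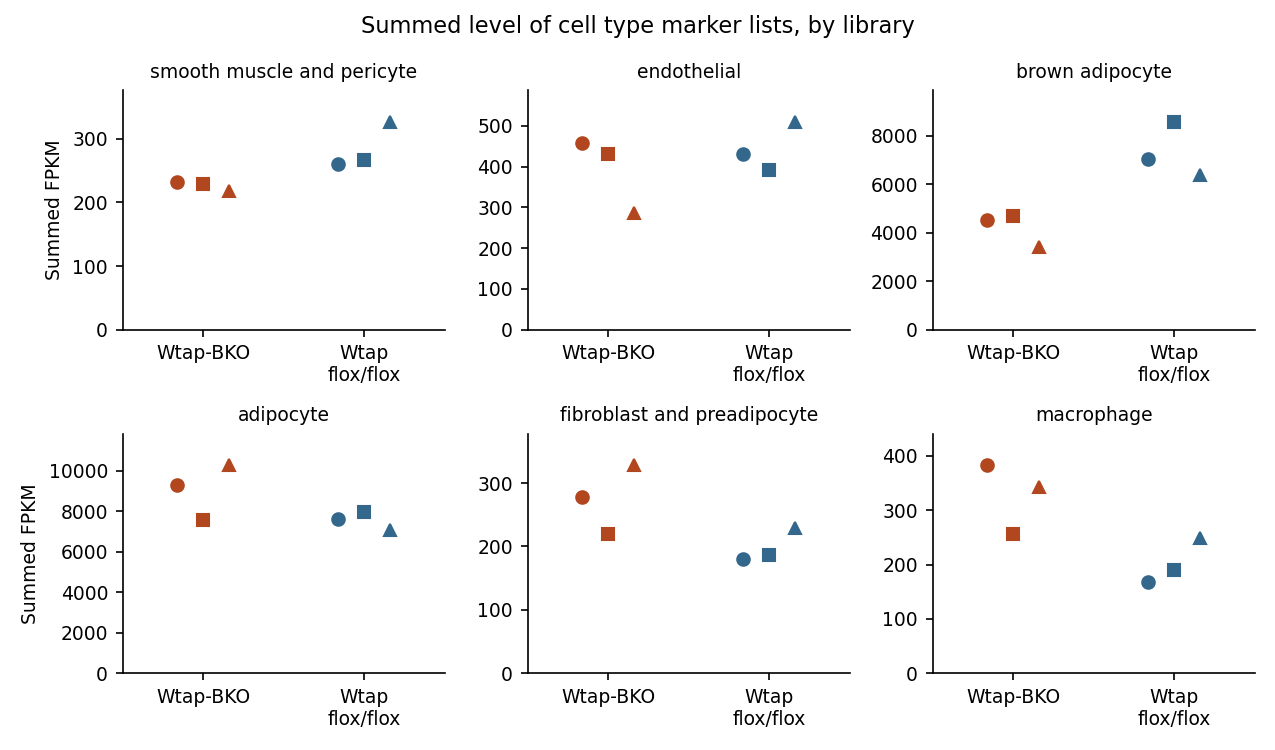
Summed FPKM of 6 cell type marker lists in each library, Wtap-BKO left of Wtap flox/flox; circle, square and triangle are replicates 1, 2 and 3. The groups separate for the smooth muscle and pericyte, brown adipocyte and macrophage lists, and overlap for the endothelial, adipocyte and fibroblast lists.

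The calls of Npr1 and Npr3 lay near the threshold, and each was kept in 10 of 20 alternative analyses. Of those 10, the unadjusted p and the fold minimum re-read the same fit, so neither could lose these calls. The direction of both genes held in all 20, with log2 changes between -1.02 and -0.70 for Npr1 and between 0.96 and 1.54 for Npr3. Filters, the protein-coding restriction, the robust variance and the replicate block left the log2 change as it was. Over all 20 the adjusted p ran between 0.0213 and 0.245 for Npr1 and between 0.0152 and 0.283 for Npr3. The groups did not overlap for 2 of the 6 tested genes, Npr1 and Npr3, beside 4733 of all 13507 (35.0%).

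**Figure D5:**
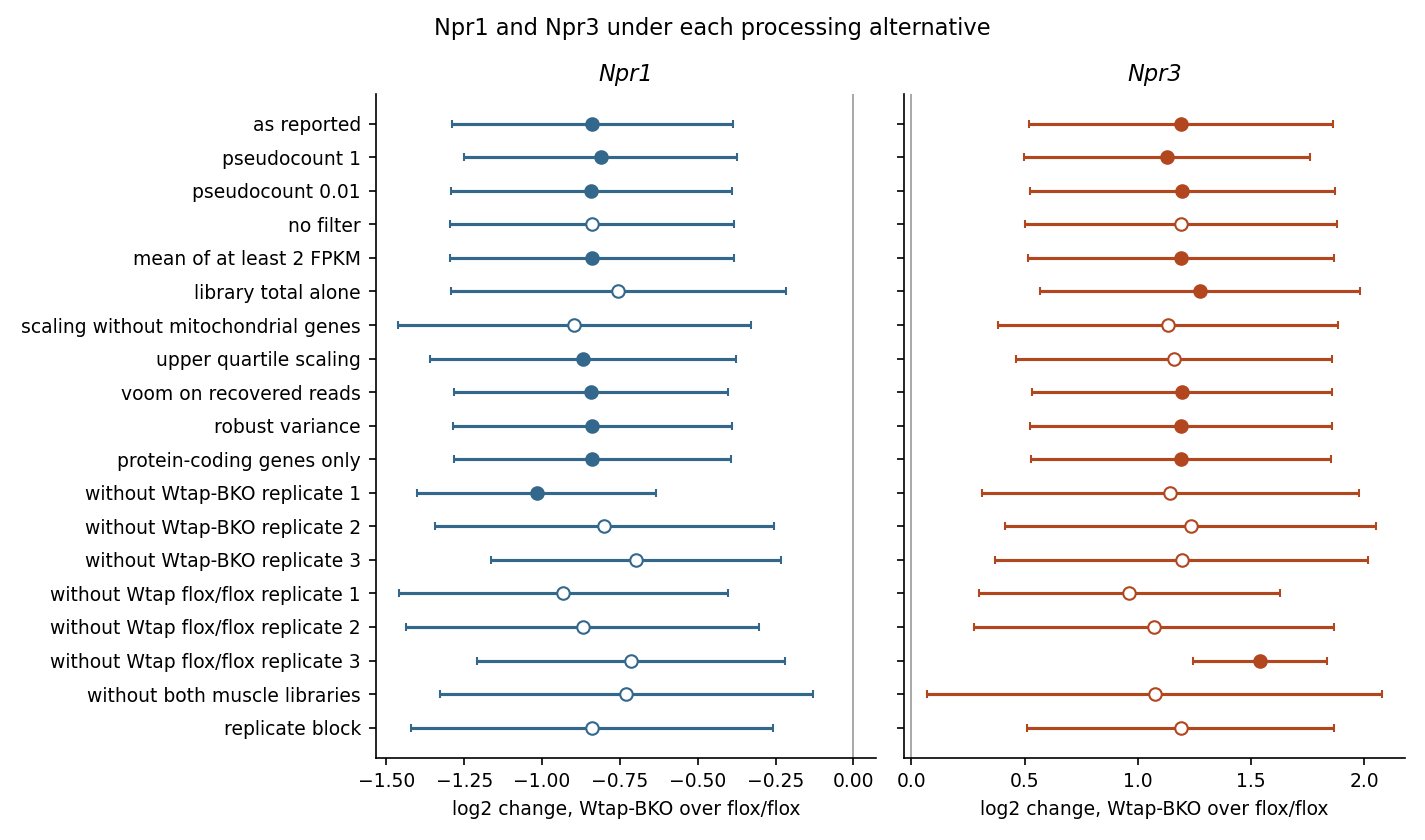
Log2 change of Npr1 and Npr3, Wtap-BKO over Wtap flox/flox, with 95% intervals, as reported and under each alternative that refits the model; filled points passed an adjusted p of 0.05. All values of Npr1 lie below 0 and all values of Npr3 above 0, while many points are open.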

How the data were processed

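RNA-seq of iBAT from 3 Wtap-BKO and 3 Wtap flox/flox mice was analysed. Per the labels and the study's methods, the authors aligned reads to GRCm38.p6 with HISAT2 2.0.5, counted them per gene with featureCounts 1.5.0-p3 and used DESeq2 1.16.1; a strand setting for counting is not given in the sources consulted, so overlapping antisense genes cannot be told apart. The deposited values are FPKM. Reads were recovered from FPKM times gene length (100% whole within 0.01), and the deposited scaling equalled median-of-ratios size factors. As the deposited unit is FPKM, the main test was not a count test: limma 3.58.1 (R 4.3.3) was fitted with group as its only term and a variance trend to log2(FPKM + 0.1), which understates changes of low genes. Genes averaging 0.5 FPKM and 10 reads or more were tested, with Benjamini-Hochberg adjustment over all 13507 and a two-sided threshold of 0.05. Replicates are mice per the study, differed by more than sampling noise (chi-square per degree of freedom 22.6 to 117.5, scaled by read totals), and p-values measure the spread between them.

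The 8 genes and all lists were chosen with earlier results of these data known. Named genes were the 8, every called gene of a pathway list with the 2 most abundant uncalled tested genes of each, Wtap and Ucp1, and the 3 nearest profiles of each tested gene. Other genes are marked in the text as named after their values were seen. Alternatives were other pseudocounts, filters, scalings, a robust variance, voom (on the recovered reads), a table restricted to protein-coding genes, unadjusted p, a fold minimum of 1.5, the replicate number as a block, and fits without each library or without both muscle-holding libraries. Promoters came from RefSeq (7 of 8 genes matched) and transcript sites from GENCODE.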

Additional observations from a re-analysis of the deposited data

How the results depend on the processing

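Directions of Npr1, Npr2, Npr3, Gucy1b1 and Pde5a held in every alternative, though several settings cannot move a log2 change. Gucy1a1, never called, changed sign without Wtap flox/flox replicate 3. Pde5a gave no value under the minimum of 2 FPKM. The log2 change of Npr1 lost its call with no filter (-0.84), library total alone (-0.75), scaling without mitochondrially encoded genes (-0.90) and without both muscle-holding libraries (-0.73), and ranged between -1.02 and -0.70 with each library left out. Npr3 lost its call with no filter (1.19), scaling without mitochondrially encoded genes (1.13), upper quartile scaling (1.16) and without both muscle-holding libraries (1.07), and ranged between 0.96 and 1.54 with each library left out. Of the 8 genes, 0 were called with no filter, without mitochondrially encoded genes or without both muscle-holding libraries, 1 with library total alone or upper quartile scaling, and 0 to 1 with each library left out. Genes called over the whole table numbered 687 with no filter, 3897 at an unadjusted p under 0.05, 325 to 1276 with each library left out, and 0 without both muscle-holding libraries (2217 at an unadjusted p under 0.05, limma, smallest adjusted p 0.0852). Called genes of the pathway lists, 2 as reported, numbered 5 with library total alone, 19 unadjusted, 0 without both muscle-holding libraries and 2 to 4 with each library left out. Called markers, 11 as reported, numbered 5 with no filter, 34 unadjusted, 0 without both muscle-holding libraries and 1 to 13 with each library left out. Why calls were lost was not tested, except that fewer libraries or more genes tested are part of those settings.

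Replicates with the same number did not deviate together (correlations of -0.05, -0.40 and -0.27). Pairs of different numbers ran from -0.38 to 0.56, highest for Wtap-BKO replicate 3 with Wtap flox/flox replicate 2. Deviations from the mean of so few libraries depend on each other, so no pairing was read from these values. With the replicate number as a block, 308 genes and 3 markers were called, and of the 8 genes 0: Npr1 kept -0.84 (adjusted p = 0.117) and Npr3 1.19 (adjusted p = 0.0866, limma).

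The read depth limits Prkg2, with 7 to 22 reads a library, and Prkg1, with 73 to 129, more than the receptors.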

Other observations

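Marker lists of 4 further cell types were read in the same libraries. The single calls below stand beside 9.98% called of all genes tested, and are not read as results about cell types. Of 7 tested mast cell and platelet markers 1 was called higher in Wtap-BKO, Pf4, at 15.5 ± 3.89 FPKM against 7.59 ± 0.972 in Wtap flox/flox (adjusted p = 0.0301, limma). Of 5 tested Schwann and nerve markers 1 was called lower, S100b, which brown adipocytes also express, at 11.9 ± 4.68 FPKM in Wtap-BKO against 33.9 ± 1.81 in Wtap flox/flox (adjusted p = 0.0202). Of 3 tested T and B cell markers 1 was called lower, the B cell receptor gene Cd79a, at 1.05 ± 0.190 FPKM in Wtap-BKO against 2.16 ± 0.384 in Wtap flox/flox (adjusted p = 0.0332). None of the 13 skeletal muscle markers was called or had an unadjusted p under 0.05 (limma), 1 library in each group holding most of their reads. Pf4, S100b and Cd79a were named after their values were seen.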
